A study of Mus musculus with 7 samples.

Results

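Classical cadherins and the catenins that bind them were followed in the surface ectoderm of mouse embryos, the epithelium next to the eye from which the lacrimal gland forms. The 10 genes were picked by name from the deposited table of 47729 genes: the cadherins Cdh1, Cdh2, Cdh3, Cdh4, Cdh6, Cdh11 and Cdh13 and the catenins Ctnna1, Ctnna2 and Ctnnd1. Each of the 10 had a mean of at least 10 normalized counts and entered the test, as did 15029 genes in all. A normalized count is a read count divided by a size factor of its library. All libraries came from stage E12.5. There were 3 from wild type embryos, replicates 2 to 4 (WT2, WT3 and WT4), and 4 from miR-205 knockout embryos, replicates 1 to 4 (KO1 to KO4), and values are given in this order. Each library held laser-captured tissue of 3 pooled embryos, cut from frozen head sections 10 µm thick by its place between eye and brain. How the knockout allele was made, the strain and the sex of the embryos are not given in the sources used here. A wild type library removed by the submitters as contaminated by other tissue was not analysed here.

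Cadherins are single-pass membrane proteins that hold neighbouring cells together by binding the same or related cadherins across the gap, in a calcium-dependent way. Their tails bind p120-catenin near the membrane and beta-catenin farther along, and alpha-catenin ties beta-catenin to actin. Epithelia are known for E-cadherin (Cdh1) and, in their basal layer, P-cadherin (Cdh3), whereas N-cadherin (Cdh2) is typical of neural tissue, muscle and much mesenchyme, and cadherin-11 (Cdh11) of mesenchyme. miR-205 is a microRNA of stratified epithelia that lowers messages carrying a match to its seed, among them, in published work, those of Zeb1 and Zeb2, which repress Cdh1.

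The libraries held 8903523 to 12504790 recovered reads, and a member had between 16 and 3264 reads in a library. Wild type replicate 2 and knockout replicates 1 and 2 had under 10000000 reads. The targeted gene Mir205 was listed at 0 in all 7 libraries and so did not check the genotype labels. The 10 surface ectoderm markers were detected in every library, and their summed level was uneven. It was 32609, 35027 and 41171 normalized counts in the wild type libraries, and 22534, 24420.3, 36595 and 30366.5 in the knockout libraries. Knockout replicates 1 and 2 stood below the other 5 libraries. They stood above them in the summed level of 10 mesenchyme markers, with 25923 and 22724 against 15365 to 18052 for wild type and 16288 and 17374 for KO3 and KO4. The largest part in KO1 and KO2 was Col3a1 (9809 and 8658), and not every marker was highest there. Dcn had 950 and 918 and Lum 1749 and 2106 in KO1 and KO2, against 1666 and 2439 in WT4. In KO1 the mesenchyme sum exceeded the ectoderm sum. These sums come from different genes without scaling by exon length, so which is larger does not show which tissue prevailed. The 5 erythroid markers summed to 34349.5 to 116523 normalized counts over wild type and 26196 to 60289 over knockout libraries, with WT2 the highest. No marker of any list was at 0 in every library. In tissue RNA of this kind, fewer cells of a type and less RNA per cell cannot be told apart.

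To see which messages the microRNA could bind directly, 3′ UTRs of the members were searched for its seed match, and the sequences below show the microRNA and the matches found in the members. The mature miR-205-5p is printed with its seed, bases 2 to 8, in capitals, from RefSeq on GRCm38.p6 (chromosome 1, 193507503 to 193507524, minus strand). The target windows come from GENCODE M21 transcripts on GRCm38, 5′ to 3′ as in the message, with the seed match in capitals.
mmu-miR-205-5p: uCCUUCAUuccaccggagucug
Cdh11 8mer: aaaatatttaaATGAAGGAgaagtccacgg
Cdh11 7mer-m8: gtgaacttacaATGAAGGgaaatcgtcta
Cdh11 7mer-A1: tggaacttctgTGAAGGAcctttcacttg
Ctnnd1 8mer: tcccaactctaATGAAGGAaggttctttgt

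An 8mer pairs with the whole seed and has an A behind it, a 7mer-m8 lacks that A, and a 7mer-A1 has the A but pairs with a shorter part of the seed. Cdh11, whose longest annotated 3′ UTR has 2219 bases, held the first pair of matches close together, starting at bases 266 and 295 of the UTR, 29 bases apart, and the 7mer-A1 at base 1553. On chromosome 8 (minus strand) they lie from 102634041 to 102634048, from 102634013 to 102634019 and from 102632755 to 102632761. The 8mer of Ctnnd1 starts at base 2269 of 2821 and lies on chromosome 2 from 84600616 to 84600623 (minus strand). The 3′ UTRs searched for Cdh1, Cdh2, Cdh3, Cdh4, Cdh6, Cdh13, Ctnna1 and Ctnna2 had none of these 3 kinds of match. Thus 2 of 10 members held an 8mer or 7mer-m8, against 12.4% of the 13541 tested genes with an annotated 3′ UTR of at least 30 bases. Of the Cdh1 repressors, Zeb1 held 1 8mer and Zeb2 held 3 7mer-A1 matches. A match is a description of the letters and not a site shown to be bound.

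Levels of different genes were compared per kilobase of merged exons. In wild type Cdh1 came first with 556 ± 83.4 normalized counts per kilobase (SD, n = 3), followed by Cdh3 with 323.0 ± 46.1, Ctnna1 with 292 ± 32.3 and Cdh11 with 192 ± 31.5. Cdh3 and Ctnna1 overlapped in their libraries and cannot be ranked, whereas each other step in this order was larger than the spread over wild type libraries. Cdh2 (50.6 ± 29.0), Cdh4 (43.3 ± 9.43) and Ctnnd1 (43.0 ± 6.21) overlapped, as did Ctnna2 (19.7 ± 19.5) with each of these. Cdh6 (6.71 ± 7.16) and Cdh13 (6.68 ± 4.42) had the lowest means and overlapped with each other and with Ctnna2. In knockout Cdh1 again had the highest mean, 485 ± 159 (SD, n = 4), and was first within each library. Its libraries (330 to 625) overlapped those of Ctnna1 (309 ± 35.4), Cdh3 (285 ± 87.7) and Cdh11 (250 ± 87.7), which also overlapped each other. Cdh6 (16.5 ± 19.6) and Cdh13 (11.5 ± 4.67) again had the lowest means and overlapped, with Cdh6 below Cdh13 in every knockout library but KO2.

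The level of Ctnnd1 needs a limit. In GENCODE M21 it shares 4482 of its 7319 merged exon bases with Gm28635, a longer gene model on the same strand that the deposited table lists at 0 in every library. The counting mode used by the authors assigns a read that falls in exons of both to neither, so that the Ctnnd1 counts may rest on the 2837 bases left. Per kilobase of these bases the Ctnnd1 level was 111 ± 16.0 for wild type and 109.7 ± 9.11 for knockout. Whether the annotation used by the authors drew Gm28635 in the same way was not tested. Of the other members, Ctnna1 shares 95 exon bases with Lrrtm2 on the opposite strand, and the remaining 8 share none.

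The design asks whether these messages differed between knockout and wild type. By limma-trend with Benjamini-Hochberg adjustment 0 of the 10 members passed 0.1, where 0% of all 15029 genes did. None had an unadjusted p under 0.05, against 9.77% of all genes. The groups overlapped in 10 of 10 members, and did not overlap in 9.92% of all genes. The edgeR quasi-likelihood test and DESeq2 on recovered reads also called 0 members, where edgeR called 0% and DESeq2 1.52% of their genes. Both gave 0 members an unadjusted p under 0.05, against 9.44% and 10.2% of genes. Leaving out WT2 called 0.554% of genes and 1 member, Ctnna2. In the other limma-trend settings that called any gene, the share called was 0.0154% with values above 10 in every library, 0.0134% without KO1, 0.0402% without KO2, 0.0203% without both, 0.252% with only the libraries over 10000000 reads and 0.0201% with the replicate number as a block, and these called 0 members. Some limma-trend settings, with or without called genes, gave members an unadjusted p under 0.05. These were Cdh2 and Ctnna2 without WT2 (12.7% of genes) and with depth as a covariate (11.2%), Cdh13 without WT4 (7.76%) and Cdh2 without KO4 (10.5%). With the replicate block they were Cdh2, Ctnna2 and Cdh6 (10.5%). In the libraries over 10000000 reads they were Cdh2, Cdh11 and Ctnna2 (9.72%), where Cdh11 was lower in knockout. The authors' deposited table calls 2.83% of its genes with an adjusted p, and 0 members, at the same threshold, with Cdh2 nearest (p-value 0.0313, adjusted p 0.303). By log2 difference 6 members were on the higher side and 4 on the lower side, and the median was 0.20 against 0.0098 over all genes tested. A log2 difference is that of knockout minus wild type on log2(normalized count + 1).

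**Figure D1:**
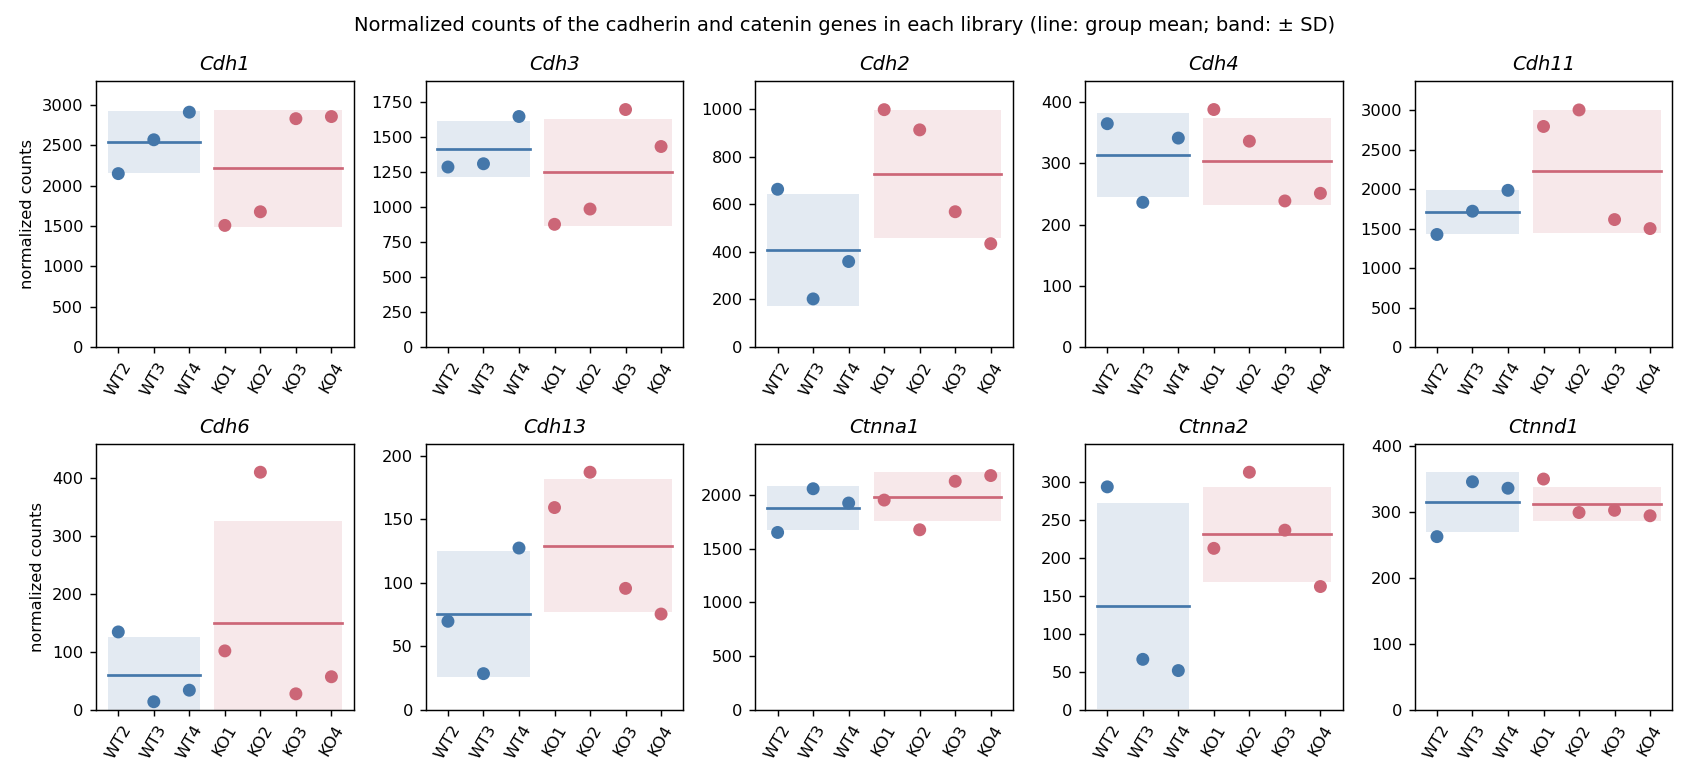
Normalized counts (vertical axes, from 0) of the 10 genes in each library, with WT2 to WT4 for wild type and KO1 to KO4 for knockout replicates; lines are group means and bands are ± SD, ended at 0. Groups overlap in every gene. KO1 and KO2 lie below KO3 and KO4 in Cdh1, Cdh3 and Ctnna1, and above them in Cdh2, Cdh4, Cdh6, Cdh11 and Cdh13.

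Among the epithelial cadherins, Cdh1 (ENSMUSG00000000303, chromosome 8, 106603351 to 106670246, plus strand, GRCm38) had 2149.5, 2569 and 2911 normalized counts in WT2, WT3 and WT4. In KO1 to KO4 it had 1507, 1676, 2831 and 2857. The first 2 knockout libraries were the lowest of the 7 and the other 2 lay among the upper wild type libraries. The group means were 2543 ± 381 for wild type (SD, n = 3) and 2218 ± 726 for knockout (SD, n = 4), a log2 difference of -0.25 (SE 0.26, 95% interval -0.87 to 0.37) and an adjusted limma-trend p of 0.771.

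Cdh3 (chromosome 8, 106510891 to 106557297, plus strand) lies 46053 bases before Cdh1. It had wild type values of 1288, 1311 and 1649 normalized counts and knockout values of 878, 987, 1699 and 1434. Again knockout replicates 1 and 2 were the lowest and replicates 3 and 4 lay within or above the wild type range. The log2 difference was -0.22 (SE 0.23, interval -0.76 to 0.32, adjusted limma-trend p 0.766). The log2 ratio of Cdh3 to Cdh1 stayed between -0.97 and -0.74 over wild type and between -0.99 and -0.74 over knockout libraries. Without knockout replicates 1 and 2 the log2 differences turned to 0.17 for Cdh1 and 0.15 for Cdh3.

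The level of Cdh1 was also taken relative to the ectoderm markers. Its log2 value minus the mean log2 value of the 10 markers was -0.17, -0.00055 and 0.032 for wild type and -0.13, -0.17, 0.11 and 0.31 for knockout, so that the groups overlapped, and the knockout mean was higher by 0.076. For Cdh3 it was higher by 0.10. Of the markers 10 of 10 had a negative log2 difference (median log2 difference -0.32), none past the threshold by limma-trend. The part of ectoderm content in the values of Cdh1 and Cdh3 was not tested. Over 7 libraries the genes whose centred log2 values were nearest to those of Cdh1 were Arhgef19, Dsg2, Trim29, Epha1 and Spint2, with mean absolute differences of 0.071 to 0.087 log2 units, against a median of 0.33 over 10292 genes with a mean of at least 100. Dsg2, a desmosomal cadherin, had wild type values of 461, 543 and 567 and knockout values of 352, 394, 556 and 614 normalized counts. Cdh3 came next in that order, at rank 6.

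Cdh2, Cdh11 and Cdh13 had their highest values in KO1 and KO2, the libraries where Cdh1 was lowest. Cdh4 and Cdh6 did so only in part. WT2 exceeded KO2 for Cdh4 (365 against 336) and KO1 for Cdh6 (134 against 102). N-cadherin, Cdh2 (chromosome 18, 16588877 to 16809246, minus strand), had 663, 202 and 359 normalized counts in WT2, WT3 and WT4. KO1 to KO4 had 997, 912, 568 and 434. Knockout replicates 1 and 2 exceeded every wild type library, while replicates 3 and 4 lay below wild type replicate 2. The means were 408 ± 234 and 728 ± 269.8, with a log2 difference of 0.92 (SE 0.46, interval -0.17 to 2.01) and an adjusted limma-trend p of 0.553. The difference was 0.45 without knockout replicates 1 and 2, 0.50 without wild type replicate 3 and 1.35 without wild type replicate 2. Relative to the mean of the mesenchyme markers the Cdh2 log2 value was -1.57 ± 0.82 for wild type and -0.90 ± 0.27 for knockout. Relative to the mean of 10 neuronal and neural progenitor markers, of which 10 had a positive log2 difference (median 1.496), it was 1.38 ± 0.59 for wild type and 0.77 ± 0.29 for knockout. The knockout mean was thus higher against one list and lower against the other, with overlapping groups in both, and the part of these markers in the Cdh2 values was not tested.

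Cdh4, or R-cadherin, known from retina and brain, was level between groups. Wild type values were 365, 236 and 341 normalized counts and knockout values were 388, 336, 239 and 251, so the groups spanned nearly the same range. Within knockout, KO1 and KO2 lay above KO3 and KO4. Its log2 difference was -0.054 (SE 0.22, interval -0.54 to 0.43).

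The type II cadherin Cdh11 (chromosome 8, 102632095 to 102785642, minus strand), which carries the 3 seed matches shown above, had wild type values of 1427, 1722 and 1987 normalized counts. Its knockout values were 2797, 3006.5, 1616 and 1502. Replicates 1 and 2 were again above all wild type libraries and replicates 3 and 4 lay within the wild type range. The log2 difference was 0.33 (SE 0.28, interval -0.34 to 0.99, adjusted p 0.719 by limma-trend), and it turned to -0.12 without knockout replicates 1 and 2. Relative to the mean of the 10 mesenchyme markers the log2 value of Cdh11 was 0.43, 0.82 and 0.69 for wild type and 0.74, 1.03, 0.63 and 0.49 for knockout, and the knockout mean was higher by 0.073. Of those markers 7 had a positive and 3 a negative log2 difference, none past the threshold. The genes nearest to Cdh11 over the 7 libraries were Fn1, Zcchc24, Cxcl12, Hic1 and Tmem86a, with mean absolute differences of 0.072 to 0.092 log2 units, against a median of 0.39 over all genes compared. Fn1 encodes fibronectin, a matrix protein, and Cxcl12 a chemokine that mesenchyme secretes.

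Cdh6, the other type II member, known from kidney and neural crest, was the most uneven. Its wild type values were 134, 13.8 and 33.7 normalized counts and its knockout values 102, 410.0, 27.4 and 56.9. KO2 was the highest and WT2 came next. The log2 difference was 1.15 with an SE of 1.05 (interval -1.33 to 3.63), and it was -0.02 without knockout replicates 1 and 2. The skeletal muscle markers, of which 5 were in the table, also peaked in knockout replicate 2, with a summed level of 7936 normalized counts against 69.1 to 2071 in the other knockout and 39.5 to 1396 in the wild type libraries. Their part in the Cdh6 values was not tested.

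Cdh13, or T-cadherin, is held in the membrane by a lipid anchor and lacks the tail that binds catenins. It is known from endothelium and smooth muscle. Its wild type values were 69.6, 28.4 and 127 normalized counts and its knockout values 159, 187, 95.5 and 75.3. The highest values were those of knockout replicates 1 and 2 and the lowest that of wild type replicate 3. The log2 difference was 0.92 (SE 0.50, interval -0.21 to 2.06, adjusted p 0.562 by limma-trend), and without wild type replicate 3 it was 0.36. The 7 endothelial markers had a summed level of 483 to 644 normalized counts over wild type and 598 to 1961 over knockout libraries, and 7 of 7 had a positive log2 difference. Relative to the mean of these markers the Cdh13 log2 value was -0.33 ± 0.86 for wild type and -0.34 ± 0.18 for knockout. Relative to the mesenchyme markers it was -4.08 ± 0.91 for wild type and -3.40 ± 0.34 for knockout, higher by 0.67 with overlapping groups.

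**Figure D2:**
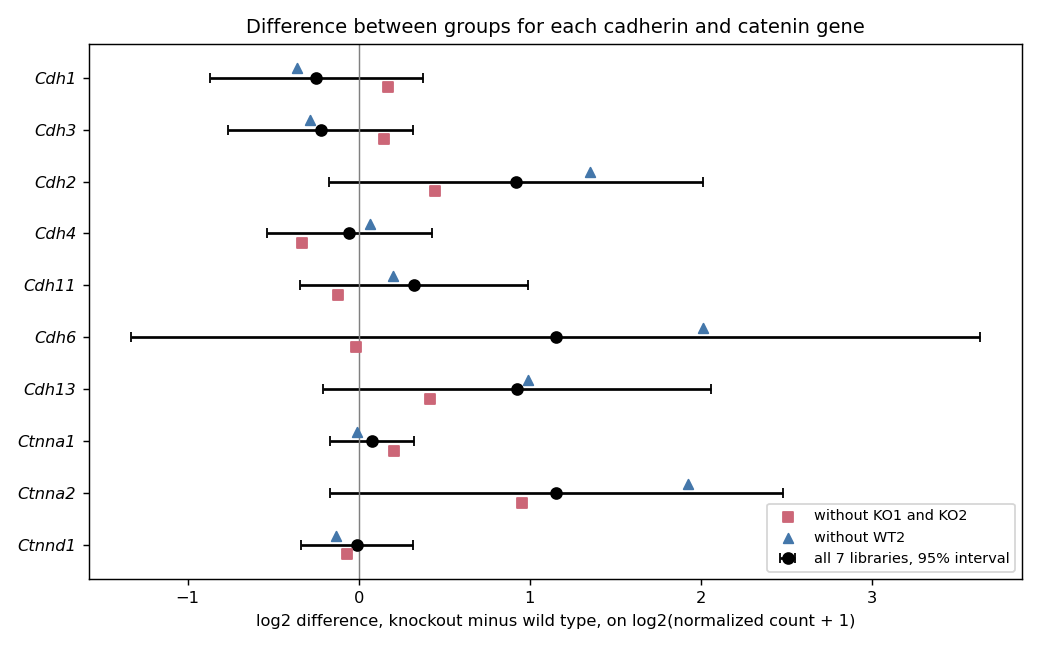
Log2 difference of knockout minus wild type (horizontal axis) for each gene; black points with bars are the values from all 7 libraries with 95% intervals, squares leave out KO1 and KO2 and triangles leave out WT2. Every interval includes 0, and the squares of Cdh1, Cdh3, Cdh11 and Cdh6 lie on the other side of 0 from the black points.

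The catenins split into steady and uneven members. Ctnna1, the alpha-catenin of epithelia, had wild type values of 1650.3, 2057 and 1924 and knockout values of 1952, 1675, 2127 and 2180.2 normalized counts. Its libraries stayed within a narrow range and the log2 difference was 0.078 (SE 0.11, interval -0.17 to 0.32). Ctnnd1, which encodes p120-catenin and carries an 8mer, had wild type values of 262, 346 and 336 and knockout values of 349.7, 299, 302 and 294 normalized counts. All knockout libraries but replicate 1 lay between the lowest and the highest wild type library, and the log2 difference was -0.0083 (SE 0.15, interval -0.33 to 0.32).

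Ctnna2, the alpha-catenin of neurons (chromosome 6, 76881637 to 77979699, minus strand), was split within wild type. Replicate 2 had 293 normalized counts, and replicates 3 and 4 had 66.2 and 51.4. In knockout the values were 212, 312, 236 and 162, so that every knockout library lay above wild type replicates 3 and 4 and 3 of 4 lay below replicate 2. The log2 difference was 1.15 (SE 0.57, interval -0.17 to 2.48) and an adjusted limma-trend p of 0.548. Without wild type replicate 2 it was 1.92 (adjusted limma-trend p 0.0607), the only setting in which a member passed 0.1, where 0.554% of genes did. It was 0.68 without WT4 and 0.86 without WT3, and 0.75 by edgeR and 0.76 by DESeq2. The split within wild type resembles that of the 10 neuronal and neural progenitor markers in part. Their summed level was 6901, 1676 and 3482 normalized counts in the wild type libraries and 8059.8, 10254, 11009 and 6064 in the knockout libraries, and 10 of 10 had a positive log2 difference. Relative to their mean the Ctnna2 log2 value was -0.18, 0.47 and -1.69 for wild type and -1.17, -0.59, -0.86 and -0.75 for knockout, with overlapping groups. Wild type replicate 2 also had the highest summed level of 6 lens markers, 2862 normalized counts against 128 and 140.3 in the other wild type libraries and 159 to 1305 in knockout. Most of that sum was Cryaa (2342) and Crybb3 (399). Among wild type libraries Crygs and Bfsp1 were also highest there, but Mip was not, and Bfsp2 was lowest (54.9 against 67.9 and 79.5). The part of the neuronal and lens markers in the Ctnna2 values was not tested.

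**Figure D3:**
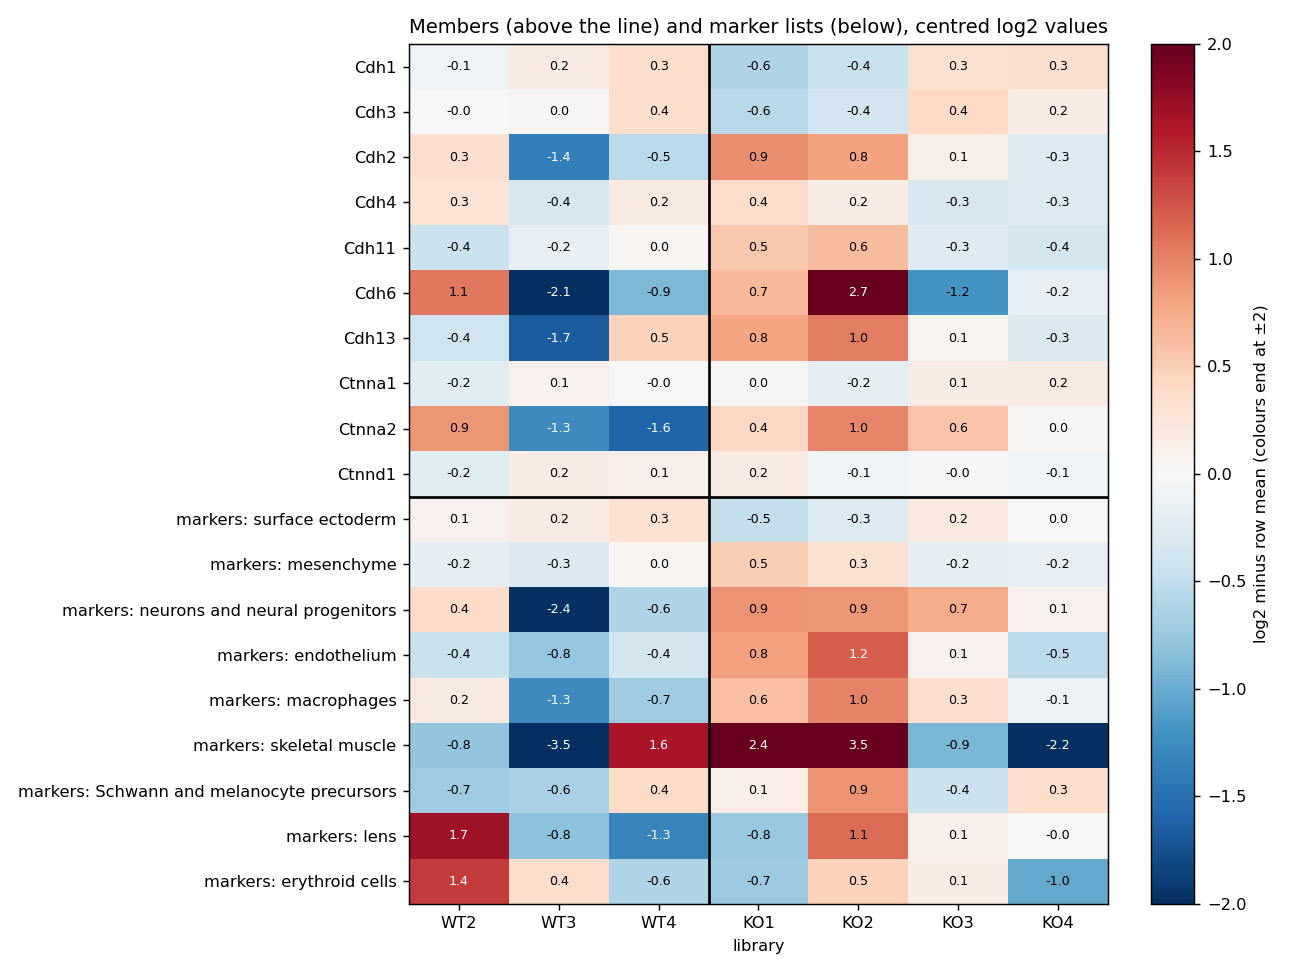
Log2 values of the members and mean log2 values of marker lists (colour and printed number, each row minus its own mean) in the 7 libraries. KO1 and KO2 are low in Cdh1, Cdh3 and ectoderm markers and high in Cdh2, Cdh11, Cdh13 and in mesenchyme, endothelium and macrophage markers, and WT3 is the lowest in Cdh2, Cdh6, Cdh13 and neuronal markers.

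The balance of cadherins within a library does not depend on its size factor. The log2 ratio of Cdh11 to Cdh1 was -0.59, -0.58 and -0.55 for wild type, with an SD of 0.020 (n = 3). It was 0.89 and 0.84 for KO1 and KO2, and -0.81 and -0.93 for KO3 and KO4. Thus the knockout libraries lay on both sides of a narrow wild type group. The log2 ratio of Cdh2 to Cdh1 was -1.70, -3.67 and -3.02 for wild type and -0.60, -0.88, -2.32 and -2.72 for knockout, with overlapping groups. Per kilobase, Cdh1 made up 43.6%, 50.3% and 47.4% of the summed level of the 7 cadherins for wild type and 31.5%, 31.8%, 47.5% and 51.1% for knockout. The Cdh11 share was 14.9%, 17.3% and 16.6% for wild type and 30.0%, 29.3%, 13.9% and 13.8% for knockout. In knockout replicates 1 and 2 the shares of the pair were nearly equal, and in the other 5 libraries Cdh1 exceeded Cdh11 by far.

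**Figure D4:**
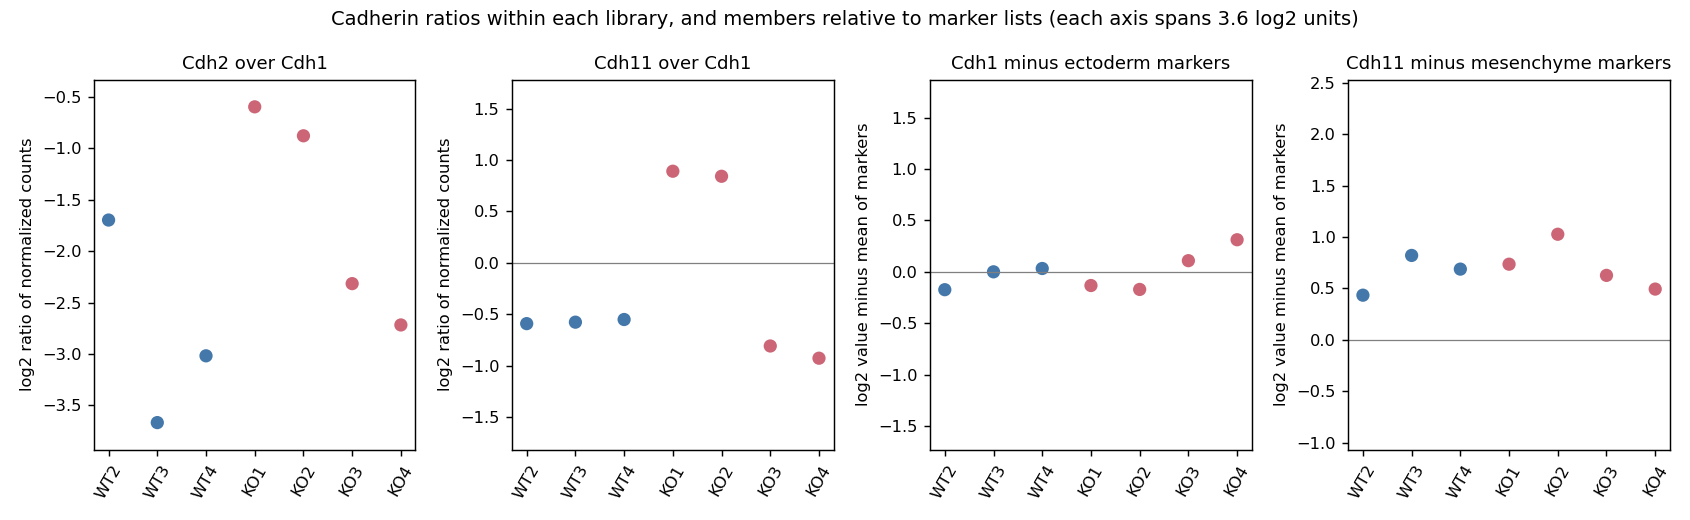
Log2 ratios of Cdh2 and Cdh11 to Cdh1 (left panels) and log2 values of Cdh1 and Cdh11 minus the mean of ectoderm or mesenchyme markers (right panels) in each library. KO1 and KO2 lie high in both ratios, while relative to the markers their values lie within or near the range of the other libraries.

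The libraries under and over 10000000 reads were compared within themselves, since knockout replicates 1 and 2 were both in the first class. Over that depth, with 2 libraries in each group, the log2 difference was 0.056 for Cdh1, 0.086 for Cdh3, 0.88 for Cdh2, -0.25 for Cdh11, 0.48 for Cdh13 and 1.73 for Ctnna2, none past the threshold by limma-trend. Under it, with 1 wild type and 2 knockout libraries and no test, it was -0.44, -0.47, 0.52, 1.02, 1.30 and -0.19 in the same order. For the remaining members the values over and under that depth were -0.21 and -0.014 for Cdh4, 0.84 and 0.60 for Cdh6, 0.11 and 0.13 for Ctnna1, and -0.19 and 0.30 for Ctnnd1. Cdh2, Cdh4, Cdh6, Cdh13 and Ctnna1 had the same direction in both classes, and the other members did not.

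Genes that work with the members were read from the same fit, and none passed an adjusted p of 0.1 in any list. Among 15 tested genes of other cadherins and catenins 8 had a positive and 7 a negative log2 difference (median 0.061). Of these, Cdh7 had wild type values of 9.77, 1.72 and 12.2 and knockout values of 36.1, 42.9, 15.9 and 17.5 normalized counts, without overlap, as in 9.92% of all genes (log2 difference 1.88, adjusted limma-trend p 0.449), and without WT3 the difference was 1.17. Cdh15, the cadherin of skeletal muscle, had wild type values of 18.3, 6.02 and 26.2 and knockout values of 93.6, 252, 28.3 and 25.4 (2.09, adjusted limma-trend p 0.475), and DESeq2 gave it an adjusted p of 0.0842. Its highest library, knockout replicate 2, was also the highest in the summed level of the muscle markers. Cdh8, singled out after its values were seen, was the other gene of this list without overlap, at 48.3 ± 4.26 for wild type and 33.6 ± 7.84 for knockout. The partners that complete the complex were chosen for their role with their values known. Ctnnb1, the beta-catenin, had 15461.5 ± 1395 and 14560.1 ± 1454 normalized counts for wild type and knockout (log2 difference -0.088), and Jup, or plakoglobin, 1587 ± 117 and 1682 ± 346 (0.061). The Jup values for knockout were 1222, 1747, 2059.8 and 1698, with KO1 below and KO3 above every wild type library.

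Among 23 adherens junction partners 11 had a positive and 12 a negative log2 difference (median -0.035), with the smallest p for Zyx, an actin regulator of junctions, at 1317 ± 136 and 1565 ± 195 normalized counts, and Shroom3, which drives apical constriction, at 143 ± 25.7 and 193 ± 40.1. Of 8 desmosome genes 6 had a negative log2 difference (median -0.28). Perp had 3073.5 ± 305 and 2359 ± 417 normalized counts, and Dsp, or desmoplakin, had 1399 ± 294 and 1059 ± 269.0. Both were lowest in knockout replicate 1, as the ectoderm markers were, and Perp is itself on the ectoderm list. Of 15 genes listed as regulators of Cdh1, 5 had a positive and 10 a negative log2 difference (median -0.099). The list mixes repressors such as Zeb1 with genes of epithelia, so this count gives no direction for Cdh1. Grhl2 and Esrp1 on it are also ectoderm markers. Zeb1 had wild type values of 225, 87.7 and 235 and knockout values of 231, 465, 271 and 274 (log2 difference 0.84, adjusted limma-trend p 0.513), with knockout replicate 1 within the wild type range, and without wild type replicate 3 the difference was 0.38. Zeb2, named for its role with its values known, had a log2 difference of 0.060 (adjusted limma-trend p 0.976). Its values were 541, 746 and 580 for wild type and 1153, 963, 478 and 320 for knockout. KO1 and KO2 lay above every wild type library and KO3 and KO4 below. Trp63, the regulator of stratified epithelia, also on the ectoderm list, had 1914 ± 113 and 1603 ± 276. Of 10 genes of cadherin turnover 6 had a positive and 4 a negative log2 difference (median 0.037). Pip5k1c, a lipid kinase that acts in cadherin trafficking, had 1069 ± 75.0 and 1216 ± 75.2 without overlap, as in 9.92% of all genes (0.19, adjusted limma-trend p 0.515). The gap was narrow, from 1150 in WT2 to 1167 in KO4.

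**Figure D5:**
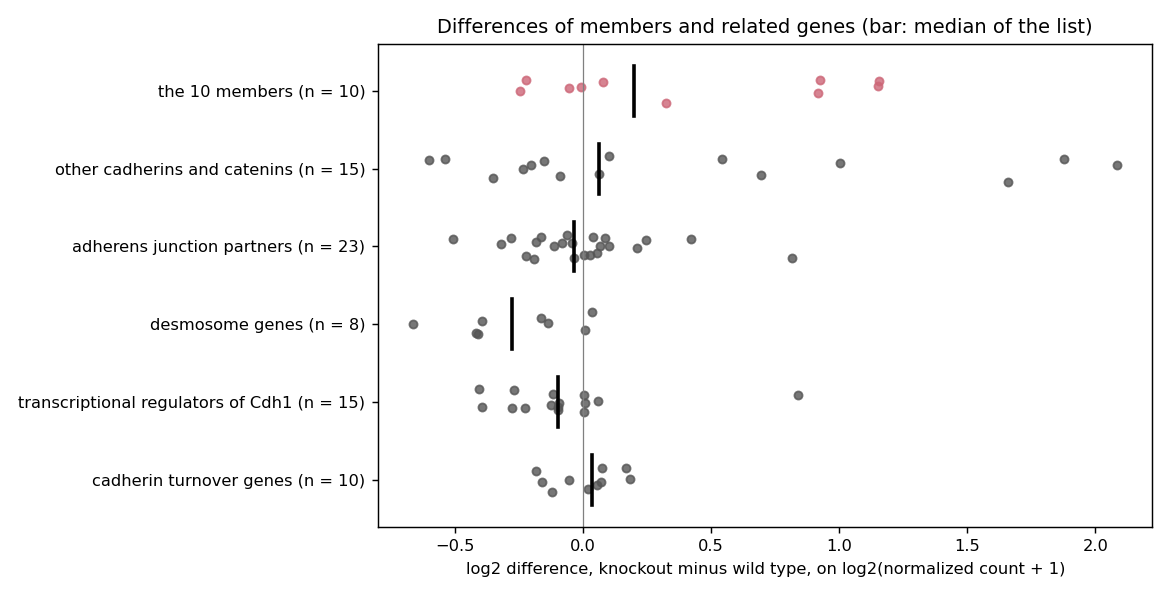
Log2 difference of knockout minus wild type (horizontal axis) for the members and for each tested gene of 5 related lists; each point is a gene and the bar is the median of its list. Desmosome genes have a median of -0.28 and the other related lists have medians from -0.099 to 0.061, with single genes such as Cdh7 and Cdh15 far to the right.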

How the data were processed

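The deposited signal columns hold normalized counts: the authors scaled each library's read counts by a single size factor. Per the submitters' processing notes and the series' design text, TopHat2 2.0.9 aligned reads to GRCm38, HTSeq counted them over Ensembl genes (intersection-strict mode), and DESeq2 was the test. The deposited log2 fold changes and p-values, raw and adjusted, are also the authors' DESeq2 output. The strand setting, the Ensembl release and the DESeq2 version are not given in the sources used here.

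The smallest value above 0 of a library was taken as 1 read, which made 100% of values above 0 whole within 0.01 read. Groups were compared by robust limma-trend (limma 3.58.1, R 4.3.3), fitted to log2(normalized count + 1) of all genes whose mean reached 10. P-values were adjusted by Benjamini-Hochberg and called under 0.1. The added 1 shrinks differences of weakly expressed genes, but values on this scale were not always the smaller ones. Ctnna2 was at 1.15 against 0.75 by edgeR and Cdh13 at 0.92 against 0.77, whereas Cdh6 was at 1.15 against 1.30. Alternatives were edgeR 4.0.16 and DESeq2 1.42.0 on recovered reads, log2 CPM with a prior count of 2, a pseudocount of 5, other filters, depth as a covariate, a replicate block and leaving out libraries. The fits were run on simulated data with the same dispersion for every gene and no differences in tissue content. That run therefore does not check them for genes as uneven as Cdh2, Cdh6 or Ctnna2. Exon lengths, 3′ UTRs (the longest of protein-coding transcripts) and coordinates came from GENCODE M21 (GRCm38). Values relative to marker lists and within the shallower libraries were added after seeing the data. Intervals are 95% intervals of the moderated fit.

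Members and lists were chosen with earlier results of these data known. Named are the members, the 2 related genes per list with the smallest p (none passed the threshold, and 1 is not reported here), and for Cdh1 and Cdh11 the 5 genes nearest in centred log2 values. Other genes were named for their role or after their values were seen, as stated. Replicates are pools of embryos, and p-values measure the spread between pools.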

Additional observations from a re-analysis of the deposited data

Results flagged for a closer look

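In 33 sets of 4 knockout values the library farthest out was compared with the rest, and chance flags about 1 in 20. Flags fell on 4 sets. Ctnnd1 was highest in knockout replicate 1 (349.7 normalized counts, the next 302). Shroom3 was highest in replicate 3 (253, the next 177), and Pip5k1c was highest in replicate 1 (1328, the next 1189). The log2 ratio of Cdh3 to Cdh1 was lowest in replicate 4 (-0.99, the next -0.78).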

How the results depend on the processing

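The count of members past an adjusted p of 0.1 was 0 in all settings but leaving out wild type replicate 2, and leaving out 1 replicate gave 0 to 1. Over all genes, 0 passed in the main test, 223 by DESeq2, 2 with values above 10 in every library, 3 without knockout replicates 1 and 2, 37 in the libraries over 10000000 reads, 3 with the replicate block, and 0 to 83 when 1 replicate was left out (83 without wild type replicate 2, 6 without knockout replicate 2, 2 without knockout replicate 1). Of 170 values of members under 17 alternatives, 18 turned direction. Without knockout replicates 1 and 2 these were Cdh1 (0.17), Cdh3 (0.15), Cdh11 (-0.12) and Cdh6 (-0.018). In the libraries over 10000000 reads they were Cdh1 (0.056), Cdh3 (0.086) and Cdh11 (-0.25). With depth as a covariate Ctnnd1 was at 0.0034. Leaving out 1 replicate gave Cdh4 -0.25 to 0.066, Ctnna1 -0.012 to 0.16 and Ctnnd1 -0.13 to 0.065. The cause was not tested. Same-numbered replicates correlated at 0.11, 0.11 and -0.020 in their deviations from group means, so the numbers were not taken to pair the libraries; with the replicate block over replicates 2 to 4 Cdh2 was at 0.74 and Ctnna2 at 1.18, and 0 members passed, with Cdh2, Ctnna2 and Cdh6 under an unadjusted 0.05 (10.5% of genes). Having 3 against 4 pools limits what can be seen, and the 95% intervals of Cdh6, Ctnna2, Cdh13 and Cdh2 each span over 2 log2 units. The part of depth in these widths was not tested.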
